A study of Mus musculus with 2 samples.

Results

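The 10 genes described here encode serine proteases of the epidermis and protease inhibitors: the kallikreins Klk5, Klk7, Klk8 and Klk10, the serine protease inhibitors Spink5 and Slpi, and the cysteine protease inhibitors Cst6, Stfa2, Stfa3 and Csta3. They are a list of symbols out of the 32285 genes of the deposited feature table, all 10 were found there, and they were chosen partly on measured values, with earlier results of these same data known, among them several wound folds of these genes. Their levels below are therefore a description, with no test and no claim of support. The study sets skin cells that lack or keep Phgdh, the first enzyme of serine synthesis, side by side in resting skin and in healing wounds. All mice were C57B6/J and carried Sox9-CreER and R26-LSL-YFP, so that YFP marks descendants of cells of the hair follicle in which Sox9 drove the recombinase. They were Phgdh fl/fl (floxed alleles that the recombinase can delete) or Phgdh +/+, and the labels give the animals as pooled male and female and no age.

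Skin was taken unwounded or 3 or 5 days after wounding, which with the genotypes makes 6 conditions. Each condition carried its own hashtag antibody and all were captured together by droplet-based 3′ sequencing, so a condition is 1 pool of cells with no replicate. Intervals are 95% intervals that cover counting error only, and "higher" and "lower" describe these pools. There were 662 fl/fl and 406 +/+ cells from unwounded skin, 523 and 1281 from 3 days and 1434 and 1353 from 5 days. Unwounded cells were shallow, with a median of 7243 UMIs (unique RNA molecules counted) in fl/fl and 7174.5 UMIs in +/+ cells, while the medians of the wounded pools lay between 36277 and 45701.5 UMIs. The sort differed as well. Every pool took live cells with high integrin-α6 and YFP that lacked the surface proteins CD31, CD45, CD117 and CD140a, but unwounded cells were also required to carry CD34 and CD200 and to lack SCA1, which keeps stem cells of the hair follicle bulge. Wounding, sort and depth therefore cannot be told apart in a comparison of wounded with unwounded pools. The genotype was checked on Phgdh, which stood at 25.2 CPM (UMIs of the gene per 1000000 UMIs of the pool) in fl/fl and 54.3 CPM in +/+ unwounded cells, at 15.3 against 116.8 CPM at 3 days, then at 20.2 against 138.3 CPM at 5 days. Cells with Xist and without transcripts of the Y chromosome made up 31.1% of the +/+ pool at 3 days and 23.7% at 5 days, and none were found in the other 4 pools.

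In the outer epidermis, cells are shed when proteases cut the junctions that hold them together, and kallikreins do part of this work. KLK5 can cut and switch on other kallikreins, KLK7 cuts the junction protein corneodesmosin, and LEKTI, the inhibitor encoded by Spink5, holds kallikreins in check, so that its loss in humans causes Netherton syndrome with fragile, inflamed skin. Cysteine cathepsins have inhibitors of their own: cystatin M/E, encoded by Cst6, is secreted and also blocks legumain, whereas stefins such as those of Stfa2, Stfa3 and Csta3 act inside the cell.

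The members lie in a few loci of the GRCm38.p6 assembly. Klk10 (ENSMUSG00000030693, chromosome 7, 43781054 to 43785410), Klk8 (ENSMUSG00000064023, 43797532 to 43803826), Klk7 (ENSMUSG00000030713, 43811294 to 43816387) and Klk5 (ENSMUSG00000074155, 43834157 to 43851181) stand in 1 row of 6 protein-coding genes spanning 70128 bp, with Klk9 and Klk6 between them. Csta3 (ENSMUSG00000094733, chromosome 16, 36210403 to 36217788), Stfa2 (ENSMUSG00000022902, 36403946 to 36408363) and Stfa3 (ENSMUSG00000054905, 36450537 to 36455392) lie within 244990 bp that hold 9 protein-coding genes, among them Stfa1 and Cstdc5. The other 3 members lie apart, each on a chromosome of its own. The stefin genes are related to one another, and their transcripts were not compared here. How the authors' counting divided reads between such related genes is not given in the sources used here, so the split of counts among Stfa2, Stfa3, Csta3 and their neighbours is uncertain.

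The bases before the starts of the stefins are shown here for their likeness. They lie outside the transcripts and do not bear on the split of reads. From RefSeq (GRCm38.p6), 150 bases upstream of each start are printed, 5′ to 3′ along the strand of the gene. They lie at chr16:36408364-36408513 (minus strand) for Stfa2, chr16:36455393-36455542 (minus strand) for Stfa3 and chr16:36210253-36210402 (plus strand) for Csta3. Capitals mark the stretches of at least 10 bases that all 3 share.
Stfa2: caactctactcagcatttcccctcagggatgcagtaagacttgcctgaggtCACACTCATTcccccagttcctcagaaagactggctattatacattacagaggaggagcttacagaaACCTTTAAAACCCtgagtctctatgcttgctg
Stfa3: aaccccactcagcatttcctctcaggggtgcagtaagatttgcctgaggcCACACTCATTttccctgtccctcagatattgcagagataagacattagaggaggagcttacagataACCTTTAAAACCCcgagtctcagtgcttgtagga
Csta3: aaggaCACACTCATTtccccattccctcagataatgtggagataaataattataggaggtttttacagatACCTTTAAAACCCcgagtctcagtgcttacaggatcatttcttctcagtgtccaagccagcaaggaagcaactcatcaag

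The 13-base stretch ACCTTTAAAACCC begins 32 bases before the start of Stfa2, 34 before that of Stfa3 and 80 before that of Csta3. Among the 27025 promoters of the table it occurs, on the strand of the gene, in the 250 bases upstream of 7 genes: these 3, Stfa1, Stfa2l1, Cstdc4 and Gm7260. The 10-base stretch CACACTCATT, which does not overlap it, occurs in 17 of the 27025. Over the whole promoter window (250 bases before the start to 50 after it), Stfa2 and Stfa3 were 80.9% identical, Stfa2 and Csta3 59.5% and Stfa3 and Csta3 60.7%. A shared stretch is a description of these letters and not of a factor that binds them. The table held a promoter for 8 of the 10 members.

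The kallikreins were sparse in unwounded pools and were carried by more cells and at higher levels in the wound. Klk5, a trypsin-like protease at the head of the cascade, stood at 2.13 (fl/fl) and 1.85 CPM (+/+) in unwounded cells, at 7.96 and 9.25 CPM at 3 days, then at 1.37 and 4.92 CPM at 5 days. It was carried by 6 and 5 unwounded cells, by 38 and 110 cells at 3 days and by 34 and 58 cells at 5 days, so it is the scarcest member by cells in every pool. Klk7, a chymotrypsin-like protease, stood at 2.90 and 3.70 CPM in unwounded cells, at 118 and 105 CPM at 3 days, then at 16.4 and 35.5 CPM at 5 days. Its cells numbered 15 and 10 in the unwounded pools, 81 and 242 at 3 days and 130 and 141 at 5 days, which is 9.07% to 18.9% of the wounded pools. Klk5 and Klk7 thus share a peak at 3 days, in a minority of cells.

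Klk8 and Klk10, both trypsin-like kallikreins, were spread over many more cells. Klk8 stood at 7.16 (fl/fl) and 10.8 CPM (+/+) in unwounded cells, at 104 and 109.6 CPM at 3 days, then at 75.5 and 84.8 CPM at 5 days, and Klk10 at 10.3 and 54.6 CPM, at 198 and 148 CPM and at 106 and 99.2 CPM at the same stages. Klk8 was found in 46.7% to 55.0% and Klk10 in 46.4% to 56.8% of the cells of the wounded pools, against 4.38% to 4.43% and 6.50% to 7.39% of unwounded cells. The high unwounded +/+ level of Klk10 is that of a single cell, which held 80.8% of the 177 UMIs.

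The serine protease inhibitors were also lowest in unwounded and highest at 3 days. Spink5 (ENSMUSG00000055561, chromosome 18, 43959545 to 44022487) stood at 21.3 (fl/fl) and 80.5 CPM (+/+) in unwounded cells, at 202 and 211 CPM at 3 days, then at 142 and 130.1 CPM at 5 days. The same unwounded +/+ cell that carried most of the Klk10 held 70.1% of the 261 Spink5 UMIs. Slpi (ENSMUSG00000017002, chromosome 2, 164354070 to 164356507), which inhibits elastase and cathepsin G of leukocytes and is secreted by epithelia, stood at 10.6 and 8.64 CPM in unwounded cells, at 288 and 192 CPM at 3 days, then at 105 and 125 CPM at 5 days. The share of cells with a Slpi UMI was close in all wounded pools, between 32.6% and 38.7%, although the level differed by over 2-fold among them. In the fl/fl pool at 3 days 1 cell held 47.4% of all Slpi UMIs and 5 cells held 78.7%.

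Among the cysteine protease inhibitors, the stefins were carried by more cells, and at higher levels, after wounding than before it. Stfa3 stood at 185 (fl/fl) and 149.6 CPM (+/+) in unwounded cells, at 1486 and 1408 CPM at 3 days, then at 1367 and 1777 CPM at 5 days, and 90.9% to 96.9% of the cells of the wounded pools carried it. Before wounding 42.0% and 43.8% of cells carried it, and without the 5 highest cells it stood at 89.4 and 79.9 CPM. Stfa2 stood at 6.58 and 14.2 CPM, then at 186 and 181 CPM, then at 104 and 70.1 CPM, in 33.3% to 47.6% of wounded cells. Csta3 stood at 8.32 and 5.86 CPM, then at 119.7 and 97.0 CPM, then at 77.4 and 91.9 CPM, in 39.5% to 51.4% of wounded cells. Cst6 (ENSMUSG00000024846, chromosome 19, 5344705 to 5349574), like Stfa3, was also found before wounding: it stood at 148 and 167 CPM in unwounded cells, at 289.9 and 786 CPM at 3 days, then at 224 and 352 CPM at 5 days. Its unwounded level rested on few cells, since the 5 highest held 72.6% (fl/fl) and 76.4% (+/+) of the UMIs, and without those cells it stood at 40.5 and 39.5 CPM.

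**Figure D1:**
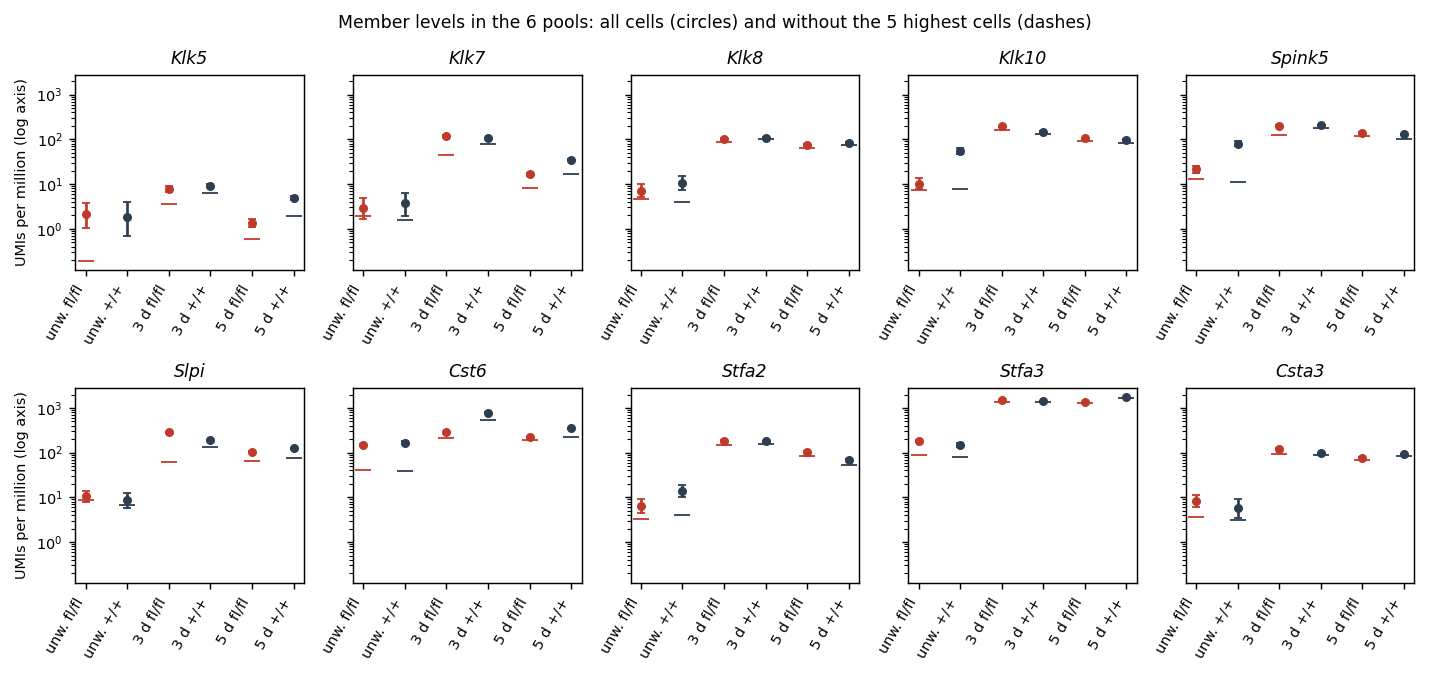
Level of each member in each of the 6 pools in CPM on a log10 axis, with 95% counting intervals; circles are all cells and dashes the level without the 5 highest cells of the pool for that gene. Wounded levels lie above unwounded ones for 10 members in +/+ and 9 in fl/fl pools, Klk5 at 5 days being the exception; the dash of Klk5 in unwounded +/+ cells is missing since no UMI was left.

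Depth and free RNA bear on the shares of cells. Thinned to 5000 UMIs per cell, which kept 578 and 349 unwounded and 503 to 1414 wounded cells per pool, Klk8 was found in 2.60% (fl/fl) and 2.01% (+/+) of unwounded cells, 23.1% and 20.4% at 3 days and 17.4% and 17.8% at 5 days. Stfa3 was found in 34.1% and 31.8%, then 81.5% and 79.4%, then 84.9% and 78.5% of the thinned cells, and Csta3 in 2.08% and 1.72%, then 20.1% and 16.7%, then 17.6% and 16.3%. At equal depth the share was higher in the wounded pool for 10 of 10 members at 3 days in both genotypes and at 5 days in fl/fl. At 5 days in +/+ it was higher for 9 of 10, with Klk5 at 0.761% of wounded and 1.15% of unwounded cells. Any difference counted as higher: Klk5 at 5 days in fl/fl stood at 0.566% (0.245% to 1.11%) against 0.519% (0.107% to 1.51%). The same count over all genes was not made, so nothing is read from these counts about the members. RNA outside cells, estimated from barcodes of 100 to under 400 UMIs, would by itself put a Klk7 UMI in 1.64% and a Stfa3 UMI in 26.5% of unwounded fl/fl cells, where 2.27% and 42.0% were found. The unwounded Klk7 share is thus near what free RNA alone would give. As a type that should lack kallikreins, a cluster of 10 cells led by leukocyte genes had 0 UMIs of all 4 kallikreins, at a median of 4501 UMIs against 33320 UMIs over all cells. Cells so few and shallow could show 0 UMIs of a scarce gene such as Klk5 by depth alone, so little is read from this. The cluster held 64 UMIs of Slpi and 37 of Stfa3, each in 5 cells.

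A few cells held much of the RNA of some members, so shares and levels were read together. For Stfa3 the 5 highest cells held 3.72% to 10.4% of the UMIs in the wounded pools, and for Klk8 7.60% to 17.0%. For Klk5 they held 32.4% to 59.7%, for Klk7 23.6% to 61.9% and for Slpi 31.6% to 78.7%. In each wounded pool Klk5, Klk7 and Slpi thus had their levels set by far fewer cells than Klk8, Klk10 or the stefins. Cst6 and Spink5 varied with the pool, with 12.04% to 34.8% and 14.3% to 37.06% of the UMIs in the 5 highest cells. At 3 days in +/+ cells this share was higher for Cst6 (30.24%) than for Klk7 (23.6%).

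**Figure D2:**
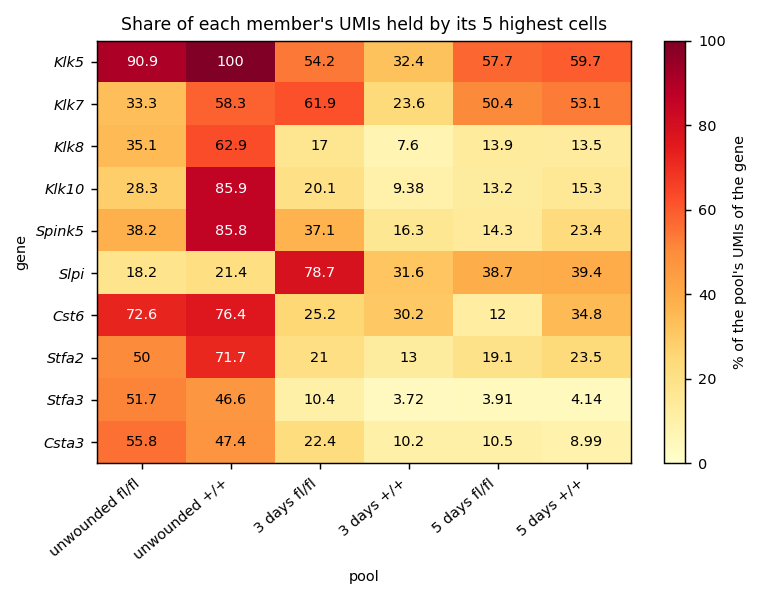
Share of the UMIs of each member (rows) that its 5 highest cells hold in each pool (columns), in percent; darker cells mean a more concentrated transcript. Most unwounded cells of the plot are dark, with Slpi (18.2% and 21.4%) the palest, and among wounded pools Slpi at 3 days in fl/fl cells stands out with 78.7%.

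Wounded pools were compared with the unwounded pool of the same genotype, which asks what the lineage expresses in the wound, under the different sort given above. At 3 days in fl/fl cells 9 of 10 members were at least 2-fold higher, where 12.3% of the 10191 genes whose mean reached 5 CPM were higher by as much, and Cst6 missed the mark with a log2 fold of 0.97. At 5 days in fl/fl cells 8 of 10 were higher (12.4% of genes), without Klk5 and Cst6. In +/+ cells 10 of 10 were higher at 3 days (11.8% of genes) and 8 of 10 at 5 days (10.8% of genes), without Klk10 and Spink5. In this last comparison the Cst6 fold of 1.07 fell short of 2-fold in cells with Y transcripts (0.0029), with the hashtag ratio rule (0.75) and at 5% mitochondrial UMIs (0.85), while Klk10 and Spink5 passed it without the highest cell of each pool (3.18 and 2.28). Members were counted without the minimum mean of 5 CPM set for all genes, and Klk5 lay below it in the comparisons at 5 days. Since wound folds of these data helped to choose the list, nothing is read from these counts beyond the pools themselves. The median log2 fold of the members was 3.85 and 3.05 in fl/fl cells at 3 and 5 days and 3.29 and 2.64 in +/+ cells, where the medians over all such genes lay between −0.34 and −0.29. With TMM factors, a scaling that gives less weight to extreme genes, the medians of all genes moved to between 0.27 and 0.30 and the background shares to between 24.5% and 25.3%; Klk5 at 5 days in fl/fl cells kept a negative fold of −0.07.

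Single folds ranged widely. Klk7 was highest at 3 days in fl/fl cells, with a log2 fold of 5.35 (4.63 to 6.19), and had 4.83 (4.02 to 5.78) in +/+ cells. Stfa2 had 4.82 (4.34 to 5.36) in fl/fl and 3.67 (3.26 to 4.13) in +/+ cells, Slpi 4.76 (4.38 to 5.17) and 4.47 (3.94 to 5.06), and Csta3 3.85 (3.41 to 4.32) and 4.05 (3.40 to 4.78). Without the 5 highest cells of each pool the fl/fl fold of Slpi was 2.82. Free RNA amounts to an estimated 72.8% (fl/fl) and 55.8% (+/+) of the unwounded Klk7 UMIs and 42.5% and 51.2% of those of Slpi. With it subtracted, the folds at 3 days were 7.19 and 5.96 for Klk7 and 5.51 and 5.46 for Slpi. Spink5 was higher by 3.25 (2.98 to 3.54) in fl/fl but 1.39 (1.21 to 1.57) in +/+ cells, and Klk10 by 4.27 (3.88 to 4.69) and 1.44 (1.23 to 1.66). The lower +/+ folds of Spink5 and Klk10 go with the 1 unwounded +/+ cell named above: without the 5 highest cells of each pool, unwounded levels were 13.2 (fl/fl) and 11.4 CPM (+/+) for Spink5 and 7.35 and 7.71 CPM for Klk10. Klk5 at 5 days in fl/fl cells was the only fold of the 40 below 0, at −0.64 (−1.54 to 0.41), and its interval includes 0. It rests on 11 unwounded UMIs, 10 of which lay in 5 cells.

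Markers of other cells moved with these comparisons. The 14 markers of suprabasal and granular keratinocytes summed to 2068 (fl/fl) and 2194 CPM (+/+) in unwounded cells, 7425 and 8955 CPM at 3 days and 8856 and 11290 CPM at 5 days, with Flg2 at 0 in 4 of the 6 pools. The 9 markers of the upper hair follicle summed to 815.5 and 1162 CPM, next 4338 and 4577 CPM and last 2304 and 2907 CPM, with none at 0. Markers of neutrophils, which also express stefins, were near 0, with the 14 genes summing to between 1.18 and 4.59 CPM. Elane and Cd177 stood at 0 in all 6 pools. Other neutrophil markers were higher at 3 days: Retnlg stood at 0.45 (fl/fl) and 1.05 CPM (+/+), against 0 in both unwounded pools, and Cxcr2 at 0.99 and 1.05 CPM, against 0 and 0.31 CPM. Hdc was lower at 3 days, at 1.17 and 0.64 CPM, against 1.36 and 1.85 CPM. The sum of 7 melanocyte markers ran the other way, at 516 and 596 CPM in unwounded cells and 16.9 to 34.4 CPM in wounded ones, with Kit, Tyrp1 and others at 0 in some pools. In unwounded +/+ cells, where the sum was highest, Dct, Tyrp1 and Kit stood at 0, so the sum does not count melanocytes. A cluster led by Dct, Tyrp1 and Pmel held 12 of 662 (fl/fl) and 3 of 406 (+/+) unwounded cells. It held 24 of 523 and 45 of 1281 cells at 3 days and 31 of 1434 and 37 of 1353 at 5 days. The part of a changed make-up of keratinocytes in the member folds was not tested, but levels within named cells follow.

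The label calls the cells hair follicle stem cells, and the bulge markers (Cd34, Lgr5, Krt15 and others) mark most cells of the unwounded pools only. The 5 clusters that these markers named as bulge stem cells held 96.4% (fl/fl) and 96.6% (+/+) of unwounded cells, 20.3% and 19.0% of cells at 3 days and 4.88% and 12.3% at 5 days. In these bulge-named cells the counting interval of the wound fold included 0 for most members. Klk7 stood at 1.95 against 3.22 CPM at 3 days against unwounded skin in fl/fl cells and at 3.07 against 2.48 CPM in +/+ cells. Stfa2 stood at 2.34 against 4.29 CPM in fl/fl and 2.17 against 3.89 CPM in +/+ cells, and Csta3 at 3.90 against 4.29 CPM and 1.81 against 3.89 CPM. All these intervals of the log2 fold include 0. Free RNA was not subtracted here, and it makes up a larger part of the counts of shallow unwounded cells. For Klk7 it was an estimated 72.8% (fl/fl) and 55.8% (+/+) of the UMIs of the whole unwounded pools. A Klk7 UMI was found in 2.35% and 1.79% of unwounded bulge-named cells and in 4.72% and 5.76% at 3 days, at unequal depth. Spink5 at 5 days in +/+ bulge-named cells was lower than in unwounded ones, at 7.35 against 14.9 CPM (−1.02, −1.86 to −0.22).

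Stfa3 was higher in the bulge-named cells at 3 days than in unwounded ones in both genotypes, but not within a shared cluster. These cells lie in different clusters: 354, 201, 41 and 40 of the 638 unwounded fl/fl cells were in 4 clusters, while 93 of the 106 fl/fl and 197 of the 243 +/+ cells at 3 days were in the other one, which held 2 and 1 unwounded cells. Stages and clusters thus largely coincide within the bulge-named cells. In the 1 bulge-named cluster with at least 20 cells of both stages, Stfa3 stood at 78.2 CPM in 40 +/+ cells at 3 days (56.3 to 105.7), against 77.7 CPM in 20 unwounded +/+ cells (40.1 to 135.7), so its higher level was not seen there. Over all bulge-named cells Stfa3 stood at 732 CPM in 106 cells at 3 days, against 83.9 CPM in 638 unwounded cells, in fl/fl skin, a log2 fold of 3.13 (2.97 to 3.29). In +/+ skin it stood at 416 CPM in 243 cells against 77.1 CPM in 392 cells, a log2 fold of 2.43 (2.23 to 2.64). By 5 days its level was 121.8 (fl/fl) and 83.0 CPM (+/+), with log2 folds of 0.54 (0.25 to 0.82) and 0.11 (−0.17 to 0.38). Without its highest cell Stfa3 still stood at 620 (fl/fl) and 394 CPM (+/+) at 3 days. Of the other folds past 2-fold higher in bulge-named cells, several rested largely on 1 cell or on few UMIs: Cst6 at 3 days in +/+ cells (700 CPM, of which 3519 of 3878 UMIs lay in 1 cell), Cst6 at 5 days in fl/fl cells (203 of 266 UMIs in 1 cell), Klk10 at 3 days in +/+ cells (100 of 143 UMIs in 1 cell), and Klk8 at 5 days in fl/fl cells (15 UMIs). Slpi at 5 days stood at 43.2 (fl/fl) and 271 CPM (+/+), and without its highest cell at 22.5 and 47.0 CPM, against 9.87 and 9.20 CPM in unwounded bulge-named cells with all cells kept. Folds past 2-fold lower came from at most 20 wounded UMIs each, such as Klk8 at 5 days in +/+ cells (4 against 13 UMIs), Klk5 at 3 days in fl/fl cells (0.390 against 2.15 CPM) and Csta3 at 3 days in +/+ cells (1.81 against 3.89 CPM). Counted this way, 1 member was at least 2-fold higher at 3 days and 3 at 5 days in fl/fl, and 3 and 1 in +/+ bulge-named cells, where 9.41% and 8.97% of all genes in fl/fl and 9.36% and 8.32% in +/+ were higher by as much, so that 1 of 10 is near the share of all genes.

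**Figure D3:**
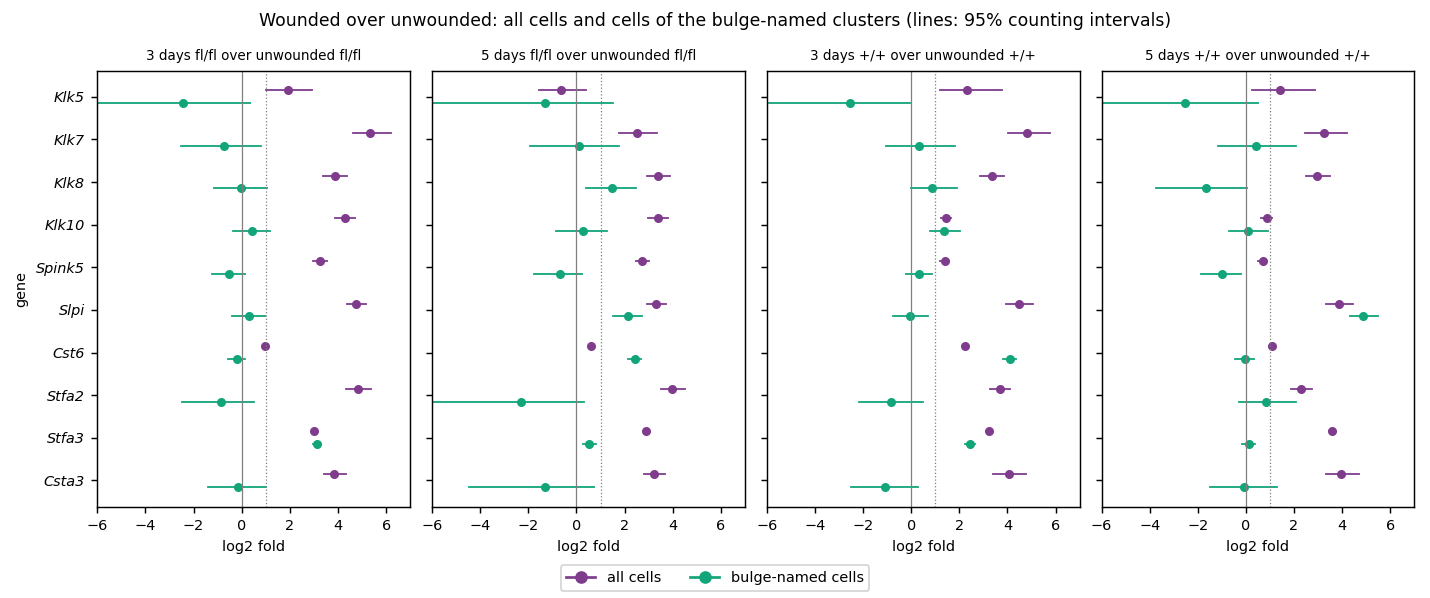
Log2 folds of wounded over unwounded cells for each member in the 4 comparisons, in all cells of the pools (purple) and in cells of the bulge-named clusters (green), with 95% counting intervals (lines, cut off at the left edge of −6) and a dotted line at 2-fold. The purple points lie right of 0 except Klk5 at 5 days in fl/fl cells (−0.64), while most green intervals include 0 and Stfa3 at 3 days (3.13 and 2.43) does not. Free RNA was not subtracted.

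The few cells with an unwounded hashtag call that fell outside these clusters carried a large part of the unwounded RNA of some members. They numbered 24 in fl/fl (3.63%) and 14 in +/+ (3.45%), and held 73.8% and 78.6% of the Cst6, 59.1% and 55.1% of the Stfa3, 35.5% and 83.9% of the Spink5 and 30.2% and 84.2% of the Klk10 UMIs. The cell with 143 Klk10 and 183 Spink5 UMIs had 100602 UMIs in all and lay in a cluster led by Il33, Krt6b and S100a8, and a cell of the upper hair follicle cluster held 331 of the 542 Cst6 UMIs of the +/+ pool. The former was the 1 unwounded cell among the 502 of its cluster. Leading cells of other members in wound-edge, cycling or granular clusters had 30774 to 65137 UMIs, against unwounded medians of 7243 and 7174.5 UMIs. Whether the hashtags of such cells were called rightly was not tested, so they may not come from unwounded skin. The shares outside the bulge-named clusters were smaller for Slpi (16.4% and 7.14%) and Klk5 (9.09% and 0%), and for Klk7 they were 0% in fl/fl and 41.7% in +/+ cells.

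The cells were grouped into 19 clusters, 18 of them with at least 50 cells, with the 10 members left out of the genes used. Levels by cluster are a description, since genes that vary with the members remain in the grouping. One cluster of 122 cells, 2.16% of all, was led by Lce3c, Lce3d, Crct1, Cdsn and Cnfn, genes of the cornified envelope and of outermost junctions. Its name, suprabasal and granular, rests on 6 of 14 markers (Sbsn, Ivl, Cnfn, Lce3c, Tgm3 and Crct1), with Krt1 and Krt10 not among them. This cluster had the highest level of 8 of the 10 members. It held 64.6% of all Slpi UMIs (2905 CPM), 48.1% of Klk7 (794 CPM), 42.8% of Klk5 (65.4 CPM), 40.1% of Spink5 (1938 CPM), 27.9% of Klk10 (1032 CPM), 23.8% of Stfa2 (867 CPM), 23.3% of Klk8 (615 CPM) and 16.1% of Csta3 (428 CPM). Spink5 was found in 100% of its cells and Klk7 in 73.0%. With the pools together, the 4 kallikreins and Spink5 stood highest in these 122 cells. Within single pools the order of Klk7 and Klk5 was not the same throughout: Klk7 at 3 days in +/+ cells stood at 709 CPM here and 723 CPM in the upper hair follicle cluster, with overlapping intervals, and Klk5 at 5 days in fl/fl cells at 19.1 CPM here (12.4 to 28.2) and 40.4 CPM there (27.4 to 57.3). Of the 122 cells 0 were found among the 662 fl/fl and 406 +/+ unwounded cells (exact upper limits 0.556% and 0.905% of cells), and they made up 4.97% (fl/fl) and 4.76% (+/+) of cells at 3 days and 1.53% and 0.961% at 5 days.

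The remaining members had other places of highest level. Cst6 stood at 7829 CPM in a cluster of 144 cells of the upper hair follicle, led by Defb6 and Krt79, which held 35.2% of its UMIs; Cst6 itself is among the 10 genes that mark this cluster. The same cluster was second for Klk7 (433 CPM) and Klk5 (33.3 CPM). Stfa3 was highest, at 3508 CPM, in a suprabasal cluster of 420 cells led by Flg, Krt1 and Krt10, and the cluster of granular genes followed with 2765 CPM. A cluster of 502 cells led by Krt6b, S100a8, Sprr1b and Il33, which no marker list named, was second for Klk10 (305.5 CPM), Spink5 (296 CPM) and Csta3 (237 CPM), and held 41.1% of all Csta3 UMIs. In wound-edge cells, 431 cells led by Mmp10, Mmp13 and Mmp9, Stfa2 stood at 294 CPM and Csta3 at 147 CPM, where Klk5 stood at 0.321 CPM and Klk7 at 2.56 CPM. A Klk7 UMI was found in 12 of 84 (fl/fl) and 13 of 169 (+/+) wound-edge cells at 3 days and in 6 of 98 and 7 of 77 at 5 days.

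**Figure D4:**
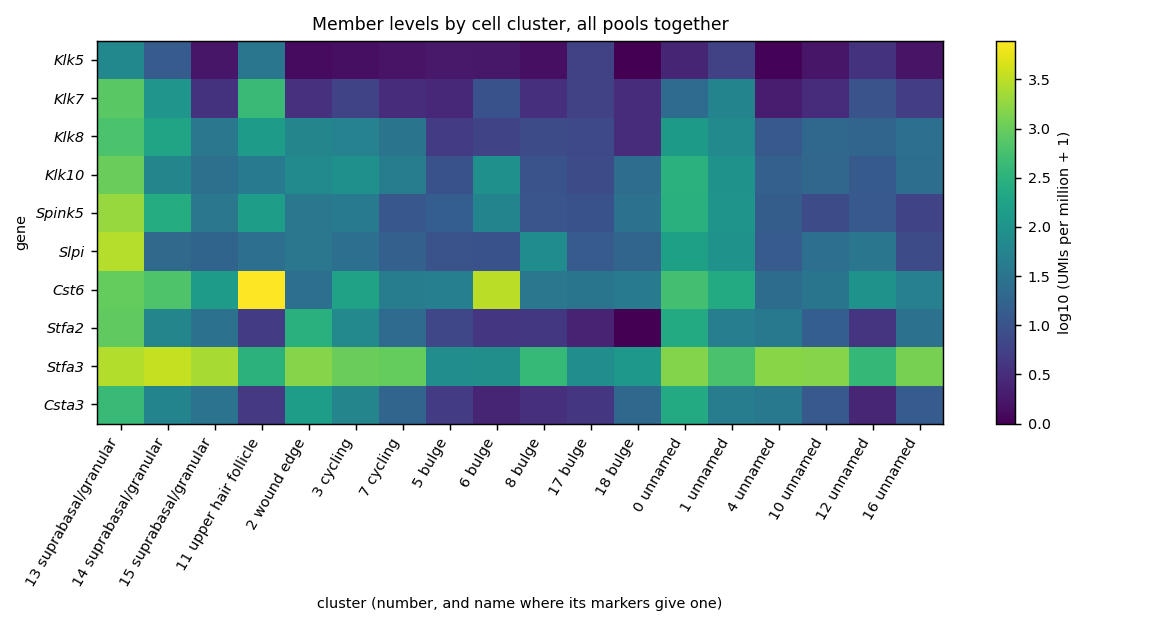
Level of each member (rows) in each of the 18 clusters of at least 50 cells (columns, number and name where markers gave one), all pools together, as log10 of the level + 1. The first column, the granular cluster, is bright for all members; Cst6 is brightest in the upper hair follicle cluster and Stfa3 is bright in most clusters outside the bulge.

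The genes with the pattern most like each member over these 18 clusters were found by Pearson's r of log2 of the level in CPM + 1, a description with no p, in which the points share libraries and differ in depth. Klk5 and Klk7 were closest to each other (r = 0.94), and next for Klk7 came Klk6 (0.93), their neighbour in the same gene row. Spink5 was closest to Adgrf2 (0.96), Sprr1a (0.95) and Rab11fip1 (0.95), and Klk10 to Rab11fip1 (0.92), St14 (0.91) and Dsc2 (0.90). Klk8 was closest to AA986860 (0.97), Atp2c2 (0.95) and Grhl3 (0.95). Slpi was closest to Cemip (0.90), Prss27 (0.90) and Gpr39 (0.89), and Cst6 to Psapl1 (0.93), Ly6g6c (0.91) and Muc15 (0.87). Stfa3 was closest to the stefin-like Cstdc5 (0.97), Stfa1 (0.97) and Cstdc6 (0.94), for which the split of reads is uncertain. Stfa2 was closest to Map7d1 (0.95), Entpd7 (0.95) and H13 (0.95), and Csta3 to Gsta4 (0.95), Spire1 (0.95) and Gjb2 (0.94). Between members, Stfa2 and Csta3 had r = 0.89, Klk10 and Spink5 0.86, and Cst6 and Stfa3 0.00.

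Within single cells Spink5 was found in a larger share of cells with a kallikrein than of cells without one. Of 4486 wounded cells thinned to 5000 UMIs, 1542 had a UMI of at least 1 of the 4 kallikreins, and 536 of these (34.8%) also had Spink5, against 287 of the 2944 cells without a kallikrein (9.75%). Among the 1542 cells, 852 had Klk8 and 968 Klk10, against 225 with Klk7 and 67 with Klk5, so the 34.8% rests mainly on Klk8 and Klk10. Spink5 was found in 70.15% of cells with Klk5, 65.8% with Klk7, 41.4% with Klk8 and 38.0% with Klk10. Of the cells with Klk5, 71.6% also had Klk7 and 80.6% Klk8. Most cells showed few members at this depth, with 10.0% showing 0, 29.4% showing 1 and 25.2% showing 2, and 3 cells showed all 10. Cells of 1 pool share their source and are not replicates.

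The genotype comparison asks whether loss of Phgdh goes with other levels of these genes. In unwounded cells 3 of 10 members were at least 2-fold lower in fl/fl than in +/+ cells and 0 higher, where 1.43% of 10447 genes differed by as much. They were Klk10 (10.3 against 54.6 CPM, log2 fold −2.41, −2.88 to −1.96), Spink5 (21.3 against 80.5 CPM, −1.92, −2.25 to −1.59) and Stfa2 (6.58 against 14.2 CPM, −1.11, −1.79 to −0.44). For Klk10 and Spink5 the same single +/+ cell decided the value. Both turned positive with the ratio rule for hashtags (0.38 and 0.88). Without the 5 highest cells of each pool Klk10 stood at 7.35 against 7.71 CPM, Spink5 at 13.2 against 11.4 CPM and Stfa2 at 3.29 against 4.01 CPM. In the largest bulge cluster, with 354 fl/fl and 244 +/+ cells, the log2 folds were 0.03 (Klk10), 0.73 (Spink5), 0.12 (Cst6) and 0.09 (Stfa2), with intervals that include 0.

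At 3 days 1 of 10 members, Cst6, was at least 2-fold different, where 0.374% of 9347 genes were. Cst6 stood at 289.9 CPM (6450 UMIs) in fl/fl and 786 CPM (42730 UMIs) in +/+ cells, a log2 fold of −1.44 (−1.48 to −1.40). Part of this lay in the upper hair follicle cluster, where 57 +/+ cells had 12480 CPM and held 45.2% of the pool's Cst6, while 14 fl/fl cells were there with 12.9%. Without that cluster Cst6 stood at 256.5 against 443 CPM, a log2 fold of −0.79. In the Krt1 and Krt10 suprabasal cluster it stood at 448 CPM in 24 fl/fl cells, against 1038 CPM in 112 +/+ cells, in the cluster led by Krt6b at 611 and 752 CPM (−0.30, −0.37 to −0.23), and in cells of the granular cluster at 1169 CPM in 26 fl/fl cells, against 1010 CPM in 61 +/+ cells. The other 9 members lay between −0.22 and 0.59. Slpi had the highest of these, 0.59 (288 against 192 CPM), and it turned to 61.5 against 131 CPM, a log2 fold of −1.09, without the 5 highest cells of each pool.

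At 5 days the kallikrein pair differed: Klk5 and Klk7 were at least 2-fold lower in fl/fl cells, 2 of 10 members, where 0.95% of 9264 genes differed by as much. That share covers genes whose mean reached 5 CPM, which Klk5 did not, and with no minimum the share was 23.2%. Klk5 stood at 1.37 CPM in 34 fl/fl cells, against 4.92 CPM in 58 +/+ cells, a log2 fold of −1.85 (−2.20 to −1.51). The size of this difference rested in part on 1 +/+ cell, which held 39.2% of the 268 Klk5 UMIs of its pool. Without the highest cell of each pool Klk5 stood at 1.16 against 2.99 CPM, and without the 5 highest at 0.578 against 1.98 CPM. Klk7 stood at 16.4 CPM in 130 fl/fl cells, against 35.5 CPM in 141 +/+ cells, a log2 fold of −1.11, with −1.22 at the far end of its interval. The Klk7 difference also depended on the handling of cells: it was −0.48 with a hashtag call by the ratio of hashtag UMIs, −0.57 with equal weight per cell, −0.98 without the highest cell of each pool and −0.82 in cells with Y transcripts. The lower level was seen in the Krt1 and Krt10 suprabasal cluster, with 125 fl/fl and 156 +/+ cells, where Klk5 stood at 3.83 against 15.9 CPM (−2.05, −2.74 to −1.41), Klk7 at 26.5 against 109 CPM (−2.04, −2.28 to −1.80) and Klk8 at 126 against 229.5 CPM (−0.86, −0.99 to −0.74). In the upper hair follicle cluster both were higher in fl/fl cells: Klk7 stood at 339 CPM in 24 fl/fl, against 221.5 CPM in 45 +/+ cells, and Klk5 at 40.4 and 12.3 CPM, from 31 and 14 UMIs. The granular cluster held 22 fl/fl and 13 +/+ cells, too few for a level in +/+.

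The inhibitors differed by less than 2-fold at 5 days. Cst6 stood at 224 against 352 CPM (−0.65, −0.68 to −0.62), with 2179 against 6721 CPM in the upper hair follicle cluster and 553 against 546 CPM in the Krt1 and Krt10 cluster. Without the upper hair follicle cluster it stood at 202 against 216 CPM, and among cells with Y transcripts only, its log2 fold was −0.15. Stfa3 stood at 1367 against 1777 CPM (−0.38, −0.39 to −0.37) and was lower in fl/fl cells in 8 of the 10 clusters with at least 50 cells of each genotype, by 0.22 to 0.70 on the log2 scale, the exceptions being 0.05 and, in a bulge cluster, 0.60. Stfa2 ran the other way, at 104 against 70.1 CPM (0.57, 0.52 to 0.63), though it was lower in the Krt1 and Krt10 cluster, at 39.0 against 76.1 CPM. Spink5 (0.12) and Klk10 (0.10) were nearly level. The fl/fl and +/+ pools at 5 days also differed in make-up, with 8.72% and 11.5% of cells in the Krt1 and Krt10 cluster and 1.67% and 3.33% in the upper hair follicle cluster, and in sex, since the Xist-only cells were all in +/+ pools. The part of sex was not tested beyond the cells with Y transcripts.

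**Figure D5:**
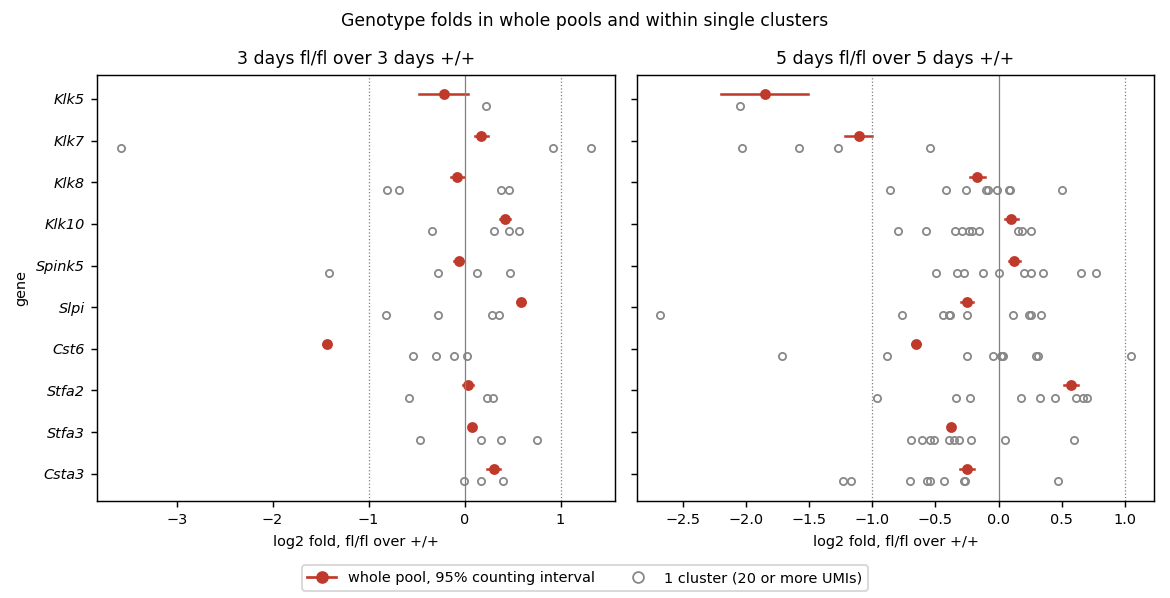
Log2 folds of fl/fl over +/+ at 3 days (left) and 5 days (right) for each member, with the whole pool as filled points and 95% counting intervals, and single clusters with at least 50 cells in each genotype and 20 UMIs as open points; dotted lines mark 2-fold. Cst6 at 3 days (−1.44) and Klk5 and Klk7 at 5 days (−1.85 and −1.11) are the pools past 2-fold, and the clusters scatter on both sides of 0 for most other members.

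From 3 to 5 days the fl/fl pool had 3 of 10 members at least 2-fold lower at 5 days, where 3.08% of 9274 genes differed by as much in either direction: Klk7 (16.4 against 118 CPM, −2.85, −2.95 to −2.75), Klk5 (1.37 against 7.96 CPM, −2.54, −2.91 to −2.18) and Slpi (105 against 288 CPM, −1.45, with −1.40 at the near end of its interval). Klk5 lay below the mean of 5 CPM set for these genes, and with no minimum the share was 30.4%. The +/+ pool had 3 of 10 lower, where 1.52% of 9356 genes differed: Klk7 (35.5 against 105 CPM, −1.57, −1.64 to −1.49), Stfa2 (70.1 against 181 CPM, −1.37, −1.42 to −1.32) and Cst6 (352 against 786 CPM, −1.16, −1.18 to −1.13). The fall of Klk7 is common to both genotypes and goes with the smaller share of the granular cluster at 5 days given above. Without that cluster Klk7 stood at 8.16 against 45.2 CPM in fl/fl and 22.1 against 63.5 CPM in +/+ cells, so it was lower outside it as well. Slpi without it stood at 56.4 against 39.4 CPM in fl/fl cells, a log2 fold of 0.52, and without the 5 highest cells its fold was 0.07. In +/+ cells Slpi without the granular cluster stood at 74.8 against 43.2 CPM, a log2 fold of 0.79, where the whole pool had −0.62. Outside that cluster Slpi was thus higher at 5 than at 3 days in both genotypes. Stfa3 changed least in fl/fl cells, at −0.12 (0.34 in +/+), and Csta3 in +/+ cells, at −0.08 (−0.63 in fl/fl).

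Other genes of the same pathways, from lists also chosen with earlier results known, are given by counts; in the wound comparisons 10.8% to 12.4% of all genes were at least 2-fold higher. Of 9 other kallikreins, 1 to 3 reached the mean of 5 CPM in a wound comparison and each of them was at least 2-fold higher. For most this was fixed beforehand, since genes this low before wounding reach that mean only through a wounded level over 2-fold higher. They were Klk6, Klk11 (2.78 CPM in unwounded +/+ cells) and, in fl/fl, Klk13, so that only Klk13 in +/+ cells could have fallen short. The same holds for some genes of the lists below, such as Cdsn (1.74 and 1.85 CPM unwounded). Klk6 stood at 0.968 (fl/fl) and 2.47 CPM (+/+) in unwounded cells, 49.2 and 38.4 CPM at 3 days and 6.20 and 10.6 CPM at 5 days, a course like that of Klk7, while Klk13 stood at 3.29 and 10.2, 42.3 and 46.7, and 64.4 and 52.4 CPM. From 3 to 5 days Klk6 was lower by 2.99 (fl/fl) and 1.86 (+/+) on the log2 scale, while Klk13 differed by 0.61 and 0.16; both were still over 4-fold above unwounded cells at 5 days. Of the other cysteine protease inhibitors 6 of 7 measured were higher in each wound comparison, with Cstdc5 at 401 and 518 CPM before wounding, 4476 and 4350 CPM at 3 days and 4148 and 4591 CPM at 5 days, and with Cst3, the secreted cystatin C, the one that was not: 656 and 707, 275 and 318, and 351 and 407.5 CPM. Of the other serine protease inhibitors 6 to 8 of 10 to 12 measured were higher and 2 lower. Serpinb2 stood at 82.8 and 134.5, 581 and 631, and 337 and 319 CPM, and Serpinb8 at 176 and 171, 30.4 and 32.2, and 16.4 and 21.9 CPM.

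The proteases and substrates around the kallikreins were raised in part. Of the serine proteases of the cascade, 2 to 4 of 6 or 7 measured were at least 2-fold higher in the wound comparisons and up to 2 lower; St14, which encodes matriptase, stood at 15.5 and 20.7, 43.7 and 44.7, and 40.1 and 33.3 CPM. Of a list of cysteine and aspartic proteases, among them the cysteine cathepsins that cystatins and stefins inhibit, 4 to 6 of 9 were higher and 0 lower, with Ctsc at 26.9 and 58.3, 139.8 and 148, and 360.3 and 306 CPM. Of the adhesion and envelope substrates 6 or 7 of 8 or 9 were higher, and Tgm5, a transglutaminase, was the one that was lower, at 564.5 and 607.5, 16.4 and 20.2, and 9.88 and 14.5 CPM. Between genotypes at 3 and at 5 days these lists had 0 genes past 2-fold, except 1 of the adhesion and envelope substrates, lower in fl/fl cells at each stage.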

How the data were processed

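The members and the gene lists were chosen with earlier results of these data known. The deposited matrix holds UMI counts per gene or hashtag for 2997303 barcodes, whole numbers with no scaling (317114087 gene and 9694124 hashtag UMIs). The authors counted reads with Cell Ranger 7.1.0 against mm10 and used Seurat 4.3.0, per the submitters' processing notes; how reads shared by gene copies were counted and whether strand was used are not given in the sources used here. The labels describe 1 gene expression and 1 hashtag library of a single capture.

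Filters were applied in turn: 1000 UMIs or more (9880 barcodes), 500 genes or more (9829) and 10% mitochondrial UMIs or less (6900). Hashtags were called with HTODemux of Seurat 5.3.0 (quantile 0.99, R 4.3.3), which left 5659 cells with a single hashtag, 503 doublets and 738 without a call. Doublets within a hashtag remain. Counts were summed per pool and divided by the pool total, which ran to between 3241223 and 70925244 UMIs; 3 UMIs, the limit a count of 0 allows, are 0.926 CPM in the shallowest pool and 0.0423 CPM in the deepest. Levels are CPM computed here from the deposited counts. They have exact Poisson, folds exact conditional binomial and shares Clopper-Pearson intervals (scipy 1.17.1), for counting error only. A condition is 1 pool, so there is no test, and 2-fold is a size and not a call of change. There were 9 comparisons. Levels are 3′ counts without gene length and were not ranked between genes.

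Cells were clustered with scanpy 1.11.5 (2000 variable genes without the members, 30 components, 15 neighbours, Leiden resolution 1). To be named, a cluster needed at least 3 markers of a list at 10 CPM or more and 2-fold above other cells, each in at least 25% of its cells, a share added after the data were seen. It also needed 2 markers of the list among its 10 leading genes or a large part of the list raised, and no other list with more leading genes. A shallow cluster with no marker among its leading genes stayed unnamed. Cluster levels were given for at least 20 cells of a pool and genotype folds for at least 50. Genes named beside the members were up to 4 per pathway list of at least 20 CPM, the most abundant first, and the 3 most like each member. Some list genes were named besides for their genotype folds. Steps were tested on simulated data. Alternatives covered cell filters, hashtag calls, scaling by TMM (edgeR 4.0.16), weighting of cells, cells of extreme level, free RNA, thresholds and clustering.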

Additional observations from a re-analysis of the deposited data

Results flagged for a closer look

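Genotype folds (fl/fl over +/+, log2) of 4 members changed sign between stages, with intervals off 0 at both stages and at least 1 of them past 2-fold; the difference between stages was not tested. Klk7 stood at 0.17 at 3 days and −1.11 at 5 days. Without the cluster of granular genes the 3-day value was −0.49 and the 5-day value −1.44; the 3-day value was also below 0 at 20% mitochondrial UMIs (−0.14), with the hashtag ratio rule (−0.21) and without the highest 5 cells (−0.83). Klk10 stood at −2.41 in unwounded cells, 0.42 at 3 days and 0.10 at 5 days, and Spink5 at −1.92 in unwounded cells and 0.12 at 5 days. For both, 1 unwounded +/+ cell held most of the UMIs (80.8% and 70.1%). Stfa2 stood at −1.11 in unwounded cells, from 34 fl/fl and 46 +/+ UMIs, and at 0.57 at 5 days.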

How the results depend on the processing

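Of the settings tried, the counts of members at least 2-fold higher in wounded pools (10 and 8 in +/+, 9 and 8 in fl/fl at 3 and 5 days) stayed between 7 and 10 in all but bulge-named clusters alone, a population chosen after seeing the data, where they were 3 and 1 in +/+ and 1 and 3 in fl/fl. Outside the bulge-named setting the share of all genes past the mark ran from 9.4% to 34.1%, highest with no minimum CPM. Where the highest cells or a member's highest cluster were left out, the shares of all genes were not recomputed. The genotype counts moved more. In unwounded cells the 3 (1.43% of genes) became 5 at 5% mitochondrial UMIs (2.76% of genes), 1 with the hashtag ratio rule (2.15%) and 0 with equal weight per cell (1.12%). They became 1 without the highest cell, 1 without the highest 5 cells and 0 in bulge-named clusters (0.802% of genes). In unwounded cells the log2 fold of Klk10 turned to 0.38 with the ratio rule, and that of Spink5 to 0.88 with it and 0.21 without the highest 5 cells. At 3 days the 1 became 2 without the highest 5 cells, 2 at 1.5-fold (1.37% of genes), 3 in bulge-named clusters (1.91% of genes) and 0 without the cluster in which each member is highest (also added after seeing the data). At 5 days the 2 became 1 with the ratio rule (0.702% of genes), with equal weight (1.53%), without the highest cell and in Y-positive cells (0.272%), and 6 in bulge-named clusters (7.46% of genes). Between 5 and 3 days both counts of 3 became 6 at 1.5-fold (with 4.68% of genes in +/+ and 7.88% in fl/fl past it) and 8 (+/+, 5.63% of genes) and 7 (fl/fl, 14.1%) in bulge-named clusters; Slpi in fl/fl cells turned to 0.071 without the highest 5 cells and 0.52 without the cluster of its highest level. Cst6 at 3 days ranged from −1.74 to −0.79 over the settings other than bulge-named clusters, Klk5 at 5 days from −2.01 to −1.14 and Klk7 at 5 days from −1.44 to −0.48, below 0 in each; in bulge-named clusters they were −4.24, 1.23 (1 UMI in each genotype) and 0.06 (4 fl/fl and 9 +/+ UMIs). Causes of these moves were not tested beyond what each setting leaves out. Leaving out clusters named for other cell types could not be run, as no such cluster was named; leaving out the leukocyte-led and melanocyte-led clusters changed none of the 90 folds by more than its interval. No paired analysis was possible because each condition is 1 pool. Unwounded depth limits the scarcer members, with 6 to 15 UMIs of Klk5 and Klk7 per pool.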

Other observations

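Barcodes left out for more than 10% mitochondrial UMIs (2929) held a different mix of these RNAs from those kept (6900, with or without a hashtag). Spink5 was the one member that was higher in them, at 455.5 (447.7 to 463.4) against 153.4 CPM (151.9 to 154.9), a log2 difference of 1.57. The other 9 were lower, by 0.56 (Klk7) to 2.23 (Cst6, at 85.1 against 399.6 CPM) on the log2 scale. Of all Spink5 UMIs in the matrix 58.2% lay in cells with a single hashtag, against 67.9% to 77.1% for the other members. No condition was assigned to these barcodes here.

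Within bulge-named cells at 3 days, Stfa3 was carried by 88 of 106 fl/fl and 192 of 243 +/+ cells; the single highest cell held 285 of 1875 and 125 of 2305 UMIs.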
